A study of Caenorhabditis elegans with 2 samples.

Results

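The genes described here encode the machinery that RNA polymerase II uses to transcribe, in the nematode Caenorhabditis elegans, and their chromatin was examined for the forkhead transcription factor UNC-130. Members were all protein-coding genes of the WBcel235 gene models whose symbol is rpb-, mdt-, ints- or taf- followed by a number. There were 59 members among 19973 protein-coding genes on the 6 nuclear chromosomes: 11 rpb genes, 20 mdt genes, 11 ints genes and 17 taf genes. The selection used names, and it was made with the peaks near these genes already known, so every count of members with a peak is a description and was not tested.

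Peaks of UNC-130 were taken from chromatin immunoprecipitation followed by sequencing (ChIP-seq). There was a single group, with 2 biological replicates of whole L1 larvae of both sexes, of strain OP77 (unc-119(ed3) III; wgIs77). These animals carry a mutation in unc-119 and the insertion wgIs77, through which eGFP-tagged UNC-130 is made. The labels describe the ChIP as directed at the tagged protein and name unc-130 as the antibody, so it is not stated whether the antibody bound eGFP or UNC-130 itself. They also do not say what drives the transgene, and the peaks of whole larvae do not tell cell types apart. Control libraries that the labels mention were not analysed here. Files of both replicates give peaks, each with a signal value set by the authors' peak caller, and no read counts, so the depth of the libraries is unknown. The list called optimal by the authors holds the 2631 pooled peaks that passed their threshold on the irreproducible discovery rate. It is the top of a pooled list of 30000 candidate peaks, and replicates 1 and 2 have candidate lists of 30000 and 25234 peaks. Signals range from 23.5 to 218 in the optimal list, from 3.57 to 150 in replicate 1 and from 2.0 to 85.3 in replicate 2. They are comparable only within a list, so ranks in each list (1 is the highest) are given as well.

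RNA polymerase II is built of a catalytic core, an assembly platform and a stalk, and several of its subunits also serve RNA polymerases I and III. Mediator links transcription factors at enhancers and promoters to the polymerase through its head, middle, tail and kinase modules. Integrator cleaves nascent RNA: it forms the ends of small nuclear RNAs and ends transcription early at many genes. The TAF proteins join the TATA-binding protein in TFIID, which recognises core promoters. UNC-130 is a FoxD-class forkhead protein, known from genetics for roles in cell migration and in the identity of neurons and glia.

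The sequences below show 29 bases around 4 of the 6 forkhead sites of the type TGTTTAC or TGTTTGC that lay within 50 bp of a member's summit. The capitals mark the site, and GCAAACA is TGTTTGC read on the other strand. Each is written 5′ to 3′ on the strand of the gene, from the RefSeq copy of WBcel235. They lie at chrX:17151365-17151393 (plus strand), chrIII:11870238-11870266 (minus strand), chrV:7575708-7575736 (plus strand) and chrIII:4918112-4918140 (minus strand).
mdt-1.2: gcagacagtgtGCAAACAccatcacggca
taf-12: cgtcttttttcTGTTTACttgcacttcct
ints-9: tcgaaaataacGCAAACAgtatcgcgtaa
rpb-8: gcgcgcgtaaaTGTTTGCacctttaagtt

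Of the 35 member summits, 6 (17.1%) had such a site within 50 bp, those of mdt-1.2, taf-12, ints-9, rpb-8, rpb-10 and mdt-18. Among all 1997 optimal summits within 2000 bp of a protein-coding 5′ end, the share was 12.4%. For summits within 500 bp, it was 4 of 22 member summits (18.2%) and 15.1% of all optimal summits that near a protein-coding 5′ end. Centres of the sites lay between 5 and 34 bp from the summit in these 4 sequences. In windows of the same size 500 bp to either side, 1 of 70 member windows (1.43%) and 2.96% of the windows around all 2631 optimal summits had a site. At those 2631 summits themselves, the share was 10.6%. The search covered both strands, and a window counted once however many sites it held. From 250 bp before to 50 bp after the 5′ end, 9 of 59 members (15.3%) and 11.8% of all protein-coding genes had TGTTTAC or TGTTTGC. The sites at rpb-10 and mdt-18 are of the TGTTTGC type as well. The 3 highest member peaks, those of ints-4, taf-11.3 and rpb-11, had no such site. For taf-11.3 and rpb-11, 29 bases are shown with the summit base in capitals, at chrIII:10505372-10505400 (minus strand) and chrII:14059964-14059992 (plus strand).
taf-11.3: tgaaattgtgcaacTacgctccattgcta
rpb-11: cgagaatgcgctagCagtcatccttgcgc

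UNC-130 summits lay near 32 of the 59 genes, and their distances were not alike in the 4 complexes. Those of the polymerase and Integrator genes all lay within 500 bp of the 5′ end of the gene, while most of those near Mediator genes were farther away. An optimal summit within 2000 bp of the 5′ end was found for 32 of 59 members (54.2%, 95% Wilson interval 41.7 to 66.3, with genes as the counted units), against 15.4% of all protein-coding genes. By complex, it was found for 8 of 11 rpb genes (72.7%, 43.4 to 90.3) and 6 of 11 ints genes (54.5%, 28.0 to 78.7). It was also found for 10 of 20 mdt genes (50%, 29.9 to 70.1) and 8 of 17 taf genes (47.1%, 26.2 to 69.0). These intervals overlap one another, and the difference between complexes was not tested. They treat genes as independent draws, though members were chosen with the peaks known, so they do not test the difference from 15.4% either.

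With a limit of 500 bp the mdt genes lost most of their summits. Within 1000 bp, a summit was found for 27 members (45.8%, against 11.3% of all protein-coding genes), among them 7 mdt genes (35%). Within 500 bp, a summit was found for 22 members (37.3%, against 8.99% of all protein-coding genes). These were the same 8 rpb and 6 ints genes, 5 taf genes and 3 mdt genes (15%). When each summit was given only to the gene with the nearest 5′ end, 19 members had a summit (32.2%, against 9.33%). Of these, 6 were rpb, 5 ints, 5 taf and 3 mdt genes. In the upper 1315 optimal peaks alone, 20 members had one (33.9%, against 9.17%). For comparison with another gene family, 69 of 76 genes named rpl- or rps- plus a number, the cytoplasmic ribosomal proteins, had a summit within 2000 bp (90.8%), and 62 within 500 bp. With each summit given only to the gene with the nearest 5′ end, 37 of these 76 genes had one (48.7%).

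**Figure D1:**
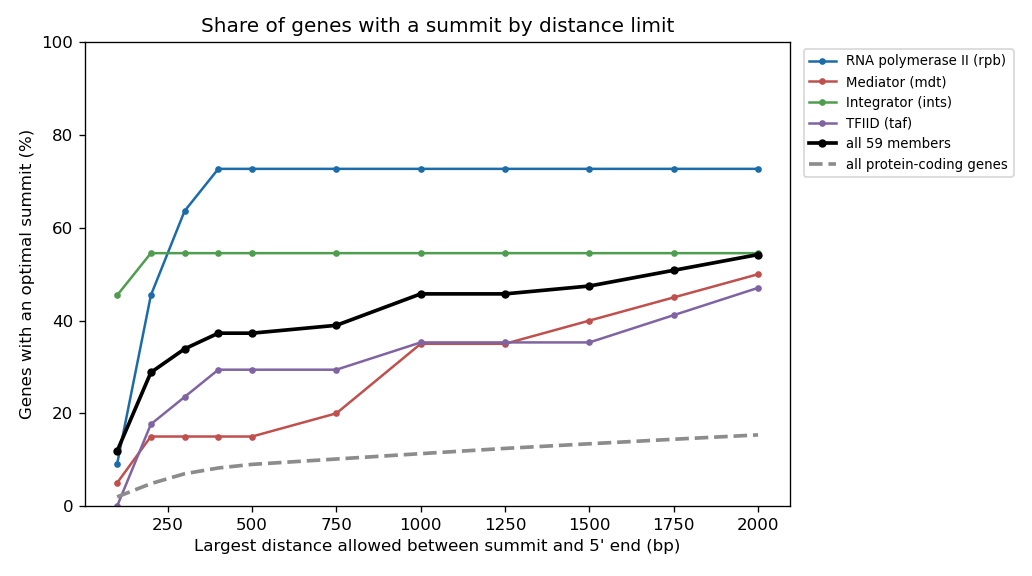
Share of genes (y axis, %) with an optimal summit within a given distance of the 5′ end (x axis, bp), for all 59 members (black), each complex (colours) and all protein-coding genes (grey, dashed). The rpb line reaches 72.7% by 400 bp and the ints line 54.5% by 200 bp, while the mdt line stays at 15% from 200 to 500 bp and reaches 50% at 2000 bp.

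Each replicate was also examined alone, through its 2631 highest peaks. In replicate 1, 26 members (44.1%) had a summit within 2000 bp, against 15.8% of all protein-coding genes. In replicate 2, 28 members (47.5%) did, against 13.5%. The rpb genes numbered 6 in replicate 1 and 5 in replicate 2, the mdt genes 8 and 10, the ints genes 6 and 5, and the taf genes 6 and 8. The full candidate lists, which include background, hold a summit near most genes: 57 of 59 members in the pooled list, against 68.6% of all protein-coding genes.

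Among the polymerase genes, all 4 members of the assembly platform, rpb-3, rpb-10, rpb-11 and rpb-12, had an optimal summit, against 15.4% of all protein-coding genes. Groups of subunits within a complex were named here with the peaks known, so they are descriptions and were not tested. The highest of the 4 peaks stood at rpb-11, whose product pairs with RPB-3. It covered chromosome II 14059853 to 14060102, 107 bp upstream of the 5′ end, with a pooled signal of 91.7 (rank 114). Its signal was 55.4 in replicate 1 (rank 117) and 35.7 in replicate 2 (rank 175), so it stood high in both. The peak of rpb-3 covered I 8728510 to 8728759, 129 bp upstream, with a signal of 60.7 in the pooled list, 43.4 in replicate 1 (rank 294) and 16.9 in replicate 2 (rank 1257). At rpb-10 the summit lay 223 bp upstream, and the 5′ end of Y37E3.1 on the opposite strand was nearer, at 72 bp. The rpb-10 peak had signals of 40.7 pooled, 32.4 in replicate 1 (rank 613) and 11.2 in replicate 2 (rank 2477). The summit of rpb-12 lay 289 bp upstream, with signals of 26.2 pooled, 11.0 in replicate 1 (rank 3739) and 17.3 in replicate 2 (rank 1188). The peaks of rpb-3 and rpb-10 ranked higher in replicate 1, and that of rpb-12 in replicate 2.

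The stalk subunits rpb-4 and rpb-7, which bind nascent RNA, had summits that ranked differently in the replicates. The peak of rpb-7 (I 3032788 to 3033037, pooled signal 39.97) had its summit 25 bp inside the gene. Its signal was 13.0 in replicate 1 (rank 2952) and 26.9 in replicate 2 (rank 411). The 5′ end of a neighbouring gene on the opposite strand, Y54E10BR.2, lies 3 bp from that of rpb-7, and this summit cannot be assigned to either gene. At rpb-4 the summit lay 137 bp upstream (II 7374233 to 7374482), with a pooled signal of 23.7. Its signal was 21.9 in replicate 1 (rank 1356) and 2.51 in replicate 2 (rank 19289). This was the member peak nearest to the lower end of the optimal list, at rank 2613 of 2631.

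The remaining polymerase summits stood at rpb-5 and rpb-8, whose products are shared with RNA polymerases I and III. They lay 365 bp and 152 bp upstream. The peak of rpb-5 had signals of 30.9 pooled, 26.0 in replicate 1 (rank 989) and 5.0 in replicate 2 (rank 7158). That of rpb-8 had 29.04 pooled, 17.2 in replicate 1 (rank 1994) and 10.1 in replicate 2 (rank 2853). No optimal summit lay near rpb-2, which encodes the second-largest subunit, rpb-6, a shared subunit, or rpb-9, whose yeast counterpart acts in start-site choice and fidelity. The highest pooled candidate among these was at rpb-9, with a signal of 8.54 (rank 10670), 1440 bp downstream.

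**Figure D2:**
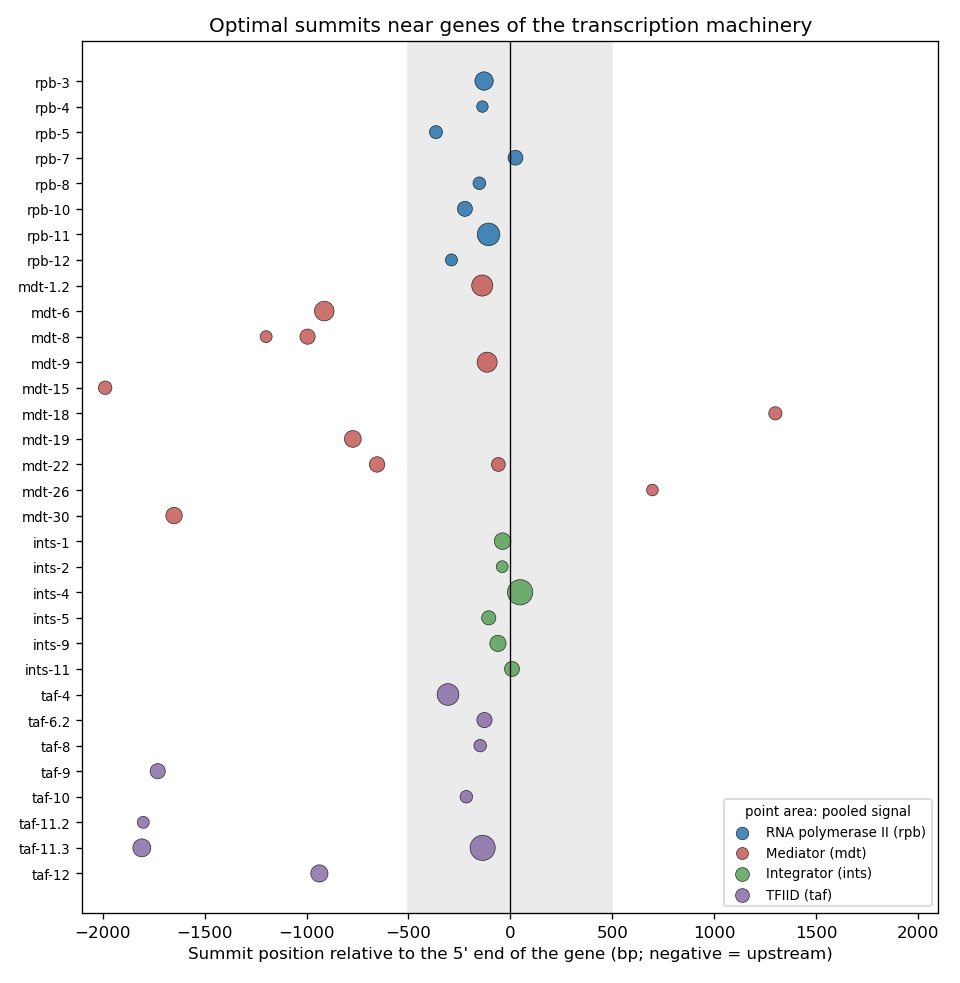
Position of the 35 optimal summits (x axis, bp from the 5′ end of the gene, negative upstream) near each of the 32 members that had at least 1 (rows, grouped by complex). Point area is proportional to the pooled signal, and the grey band marks 500 bp to each side. All rpb and ints points fall in the band, 9 of the 12 mdt points fall outside it, and 5 of all 35 points lie downstream of the 5′ end.

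Integrator genes had summits closest to their 5′ ends, with a median position of -39 bp. All 3 genes of the cleavage module, ints-4, ints-9 and the endonuclease gene ints-11, had a summit, against 15.4% of all protein-coding genes. This group was also named with the peaks known. The peak of ints-4 was the highest of all members, at I 13663275 to 13663524, with its summit 48 bp downstream of the 5′ end. Its signal was 115.2 in the pooled list (rank 45), 70.3 in replicate 1 (rank 56) and 39.7 in replicate 2 (rank 124). It stood near the top of both replicates. At ints-9, a partner of the endonuclease, the peak covered V 7575616 to 7575865, 61 bp upstream, with signals of 47.8 pooled, 29.7 in replicate 1 (rank 742) and 18.4 in replicate 2 (rank 1026). The peak of ints-11 (II 8143345 to 8143594) had its summit 8 bp downstream, with signals of 40.5 pooled, 23.0 in replicate 1 (rank 1249) and 16.9 in replicate 2 (rank 1254). Its neighbour on the opposite strand is the ribosomal protein gene rpl-10, whose 5′ end is 403 bp away.

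Of the other Integrator subunits, ints-1, ints-2 and ints-5 had a summit, 38, 40 and 106 bp upstream. The peak of ints-1, the gene of the largest subunit, had signals of 49.7 pooled, 37.95 in replicate 1 (rank 421) and 14.5 in replicate 2 (rank 1657). The peak of ints-5 had 36.3 pooled, 23.3 in replicate 1 (rank 1223) and 16.7 in replicate 2 (rank 1285). That of ints-2 had 25.3 pooled, 16.6 in replicate 1 (rank 2109) and 5.45 in replicate 2 (rank 6291), and lay 34 bp from the 5′ end of trm-1. The replicates gave ints-5 and ints-11 nearly the same rank, while ints-1 and ints-2 ranked lower in replicate 2. No optimal summit lay near ints-3, ints-6, ints-7, ints-8 or ints-13. The highest pooled candidate of these was at ints-8, which takes part in binding the PP2A phosphatase, with a signal of 14.3 (rank 4863), 85 bp upstream.

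TFIID genes had 9 summits near 8 members, all upstream of the 5′ end. Both genes of the TAF4 and TAF12 histone-fold pair had a summit, while taf-13, of the TAF11 and TAF13 pair, had none. The peak of taf-4, a scaffold of TFIID, covered I 382395 to 382644, 306 bp upstream, with signals of 85.3 pooled (rank 144), 42.2 in replicate 1 (rank 316) and 41.8 in replicate 2 (rank 103). That of taf-12 (III 11870093 to 11870342) lay 937 bp upstream in intergenic sequence, with signals of 53.4 pooled, 28.1 in replicate 1 (rank 852) and 28.8 in replicate 2 (rank 342). Both stood higher in replicate 2 than in replicate 1. The TAF8 and TAF10 pair was also represented, by taf-8 (148 bp upstream, pooled signal 28.2) and taf-10 (216 bp upstream, 28.4). In replicates 1 and 2 these ranked 3137 and 2527 at taf-8, and 2289 and 1881 at taf-10.

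Paralogs differed within the family. Of the genes for TAF11, the histone-fold partner of TAF13, taf-11.3 had 2 summits, taf-11.2 had 1 and taf-11.1 none. The upper peak of taf-11.3 (III 10505261 to 10505510) lay 136 bp upstream, with signals of 114 pooled (rank 47), 77.2 in replicate 1 (rank 32) and 38.4 in replicate 2 (rank 137). It lies between taf-11.3 and urm-1 on the opposite strand, whose 5′ end is 94 bp from the summit and so nearer. The second peak of taf-11.3, 1808 bp upstream with a pooled signal of 58.4, had its summit on the 5′ end of sly-1. The summit of taf-11.2 lay 1801 bp upstream (I 7130821 to 7131070), with signals of 25.9 pooled, 11.28 in replicate 1 (rank 3607) and 13.9 in replicate 2 (rank 1783). Of the TAF6 genes, taf-6.2 had a summit 127 bp upstream, with signals of 41.9 pooled, 28.6 in replicate 1 (rank 821) and 12.5 in replicate 2 (rank 2100), and taf-6.1 had none. The 5′ end of Y37E11AL.3 was nearer to the summit of taf-6.2, at 75 bp. The summit of taf-9, which encodes the histone-fold partner of TAF6, lay 1730 bp upstream, 54 bp from the 5′ end of hip-1 (pooled signal 41.7, ranks 912 and 1581 in replicates 1 and 2). No optimal summit lay near taf-1, which encodes the largest TAF, nor near taf-2, taf-3, taf-5, taf-7.1, taf-7.2, taf-13, taf-6.1 or taf-11.1. Of these, taf-3 had the highest pooled candidate (signal 16.1, rank 4205, 254 bp upstream), and neither taf-1 nor taf-7.1 had a pooled candidate within 2000 bp.

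Mediator genes had 12 summits near 10 members, with a median position of -713.5 bp. Only 3 of the 12 summits lay nearer to the 5′ end of the mdt gene than to that of any other protein-coding gene. The highest stood at mdt-1.2, which encodes a MED1-like subunit, at X 17151259 to 17151508. Its summit lay 138 bp upstream, with signals of 80.3 pooled (rank 175), 51.6 in replicate 1 (rank 165) and 31.2 in replicate 2 (rank 259). At mdt-9, a middle-module subunit gene, the summit lay 114 bp upstream (IV 13386141 to 13386390). Its signals were 72.2 pooled, 53.7 in replicate 1 (rank 140) and 19.7 in replicate 2 (rank 897), and the 5′ end of Y62E10A.23 was nearer, at 58 bp. The middle-module genes mdt-4, mdt-10, mdt-21 and mdt-31 had no optimal summit.

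Of the head-module genes, mdt-6, mdt-8 and mdt-18 had summits at a greater distance, and mdt-22 had one within 500 bp. The head-module genes mdt-11, mdt-17 and mdt-20 had no optimal summit. The peak of mdt-6 had its summit 913 bp upstream (V 7060412 to 7060661), with signals of 69.2 pooled, 51.2 in replicate 1 (rank 170) and 19.4 in replicate 2 (rank 922). It lay 7 bp from the 5′ end of Y57E12AL.1. At mdt-22, summits lay 654 and 59 bp upstream, with pooled signals of 43.1 and 34.8. The 5′ end of nep-26 was nearer to the first of these, at 430 bp. The replicates differed at the second, where replicate 1 had a signal of 32.7 (rank 600). The overlapping candidate of replicate 2 had a signal of 3.15 (rank 14232), with its summit 185 bp from the optimal summit. The pair of overlapping optimal peaks at mdt-8, with summits 995 and 1198 bp upstream and pooled signals of 41.8 and 25.7, were not matched alike in the replicates. Replicate 1 had a single candidate there, with its summit 1211 bp upstream and a signal of 23.3 (rank 1220). Replicate 2 had one at each of the optimal summits, with a signal of 22.2 (rank 691) at 995 bp and of 3.34 (rank 13056) at 1198 bp. The highest candidates of the 2 replicates thus lay at different summits of the pair, 216 bp apart. The 5′ end of Y62F5A.12 was nearer to both optimal summits of mdt-8, at 332 and 535 bp. The summit near mdt-18 lay 1300 bp downstream of its 5′ end, inside the gene and 337 bp from the 5′ end of uri-1. It had a signal of 31.6 pooled and 28.3 in replicate 1 (rank 839), and no overlapping candidate in replicate 2.

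Other Mediator summits were at mdt-19, mdt-30, mdt-15 and mdt-26. That of mdt-19 lay 773 bp upstream, 246 bp from the 5′ end of apb-1 (pooled signal 51.2, ranks 706 and 1068 in replicates 1 and 2). The summit near mdt-30 lay 1650 bp upstream, 43 bp from the 5′ end of F44B9.8 (pooled signal 48.99, ranks 482 and 3080). In mdt-15, known in C. elegans for the control of fatty acid genes, the summit lay 1988 bp upstream, just inside the limit, with signals of 32.8 pooled, 13.3 in replicate 1 (rank 2872) and 18.8 in replicate 2 (rank 991). It lay 1187 bp from the 5′ end of W04D12.1, the nearest gene. The summit of mdt-26 lay in an intron of the gene, 697 bp downstream (pooled signal 24.4, ranks 3189 and 2259), and G and C made up 57.7% of the 201 bp around it, the highest share of all member summits. The replicate 1 candidate at mdt-26 had its summit 102 bp from the optimal summit.

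No optimal summit lay near mdt-4, mdt-10, mdt-11, mdt-17, mdt-20, mdt-21, mdt-27, mdt-28, mdt-29 or mdt-31. The candidates nearest below the optimal list were at mdt-29 (pooled signal 22.5, rank 2793, 1807 bp upstream) and mdt-4 (22.2, rank 2831, 1904 bp downstream). In replicate 2 alone, mdt-4 and mdt-20 had a summit among the 2631 highest, at ranks 1365 and 2629. Their best ranks in replicate 1 were 5103 and 12806. The optimal summit nearest beyond the distance limit was 2717 bp from the 5′ end of mdt-17, followed by those of mdt-11 at 2915 bp and mdt-21 at 2921 bp.

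Member peaks were among the highest of both replicates about as often as all optimal peaks near protein-coding 5′ ends. Pooled signals of the 35 ranged from 23.7 to 115.2, with a median of 41.7, against a median of 38.02 for all optimal peaks within 2000 bp of a protein-coding 5′ end. In their ranks, 21 of the 35 were in the upper 1315 peaks. All 35 overlapped a candidate in replicate 1 and 34 did in replicate 2. Among the 2631 highest of both replicates were 22 (62.9%), against 58.7% of all such optimal peaks. Where the summits also had to lie within 100 bp, 20 were, without the pair at mdt-8. Another 7 were among them in replicate 1 only and 6 in replicate 2 only. Of the rpb peaks, those of rpb-3, rpb-10 and rpb-11 were among the 2631 highest of both. Of the ints peaks, all but that of ints-2 were. With the 1000 highest of each replicate, 9 of the 35 member peaks were among the highest of both. The optimal list was derived from both replicates, so these shares are not independent evidence of agreement. Summits of the 2 replicates lay a median of 12 bp apart at the 34 member peaks found in both, and 18 bp apart at all such optimal peaks. For member summits within 500 bp the median was 5.5 bp, against 15 bp for all optimal summits within 500 bp of a 5′ end. No member peak touched a tRNA, snoRNA, snRNA, miRNA or rRNA gene or came within 100 bp of it, against 6.41% of all optimal peaks near 5′ ends. Leaving such peaks out can therefore change no member count, and it lowers the share of all protein-coding genes with a summit within 2000 bp to 14.6%. These differences were not tested.

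**Figure D3:**
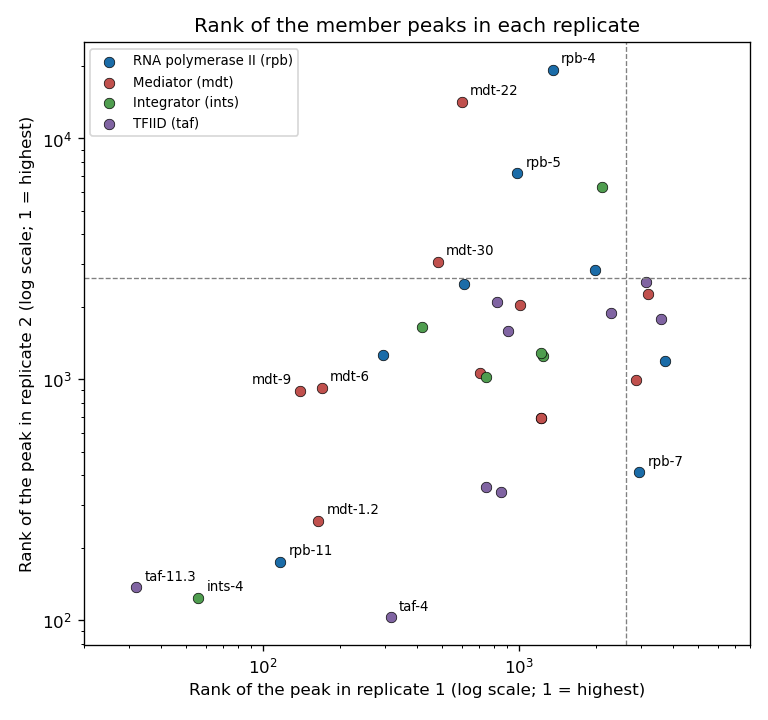
Rank of each member peak in replicate 1 (x axis) and replicate 2 (y axis), both on log scales with 1 as the highest, coloured by complex, for the 34 optimal peaks with an overlapping candidate in both. Dashed lines mark rank 2631. Both mdt-8 peaks share a point. The peaks of ints-4, taf-11.3, rpb-11, taf-4 and mdt-1.2 lie at the lower left, high in both replicates, and rpb-4 at the top ranks 1356 in replicate 1 and 19289 in replicate 2.

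Members with and without a summit were also compared by the adjoining gene on the upstream side. Where that gene was on the opposite strand, with its 5′ end within 1000 bp, 13 of 17 members (76.5%) had an optimal summit, against 31.3% of all protein-coding genes in the same arrangement. Where the opposite 5′ end was farther away, 5 of 6 members (83.3%) did, against 13.9%. Another class held genes on the same strand that ended within 500 bp of the member's 5′ end or overlapped it. There, 8 of 24 members (33.3%) had a summit within 2000 bp, against 15.3%, and 3 (12.5%, against 5.70%) had one within 500 bp. For a same-strand gene farther away, 4 of 10 members (40%) had a summit within 2000 bp, against 8.57%. The remaining 2 members, mdt-18 and mdt-22, overlap a gene on the opposite strand, and both had a summit.

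Close same-strand neighbours were most frequent in Mediator, at 13 of 20 mdt genes, of which 5 had a summit (mdt-6, mdt-8, mdt-9, mdt-15 and mdt-30). They were found at 4 rpb, 3 ints and 4 taf genes, of which 2, 0 and 1 had a summit. In C. elegans many such close genes are transcribed together in operons, which the gene models used here do not annotate. At mdt-9 the neighbour Y62E10A.23 leaves no gap, and its 5′ end lies 56 bp from that of mdt-9. Members had close same-strand neighbours more often than all protein-coding genes, at 40.7% against 20.6%, and divergent neighbours within 1000 bp at 28.8% against 17.5%. Divergent neighbours at any distance stood at 6 of 11 rpb, 7 of 11 ints, 7 of 17 taf and 3 of 20 mdt genes. Of these genes, 6, 5, 4 and 3, in that order, had a summit within 2000 bp. What part these arrangements have in the positions of the summits was not tested.

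**Figure D4:**
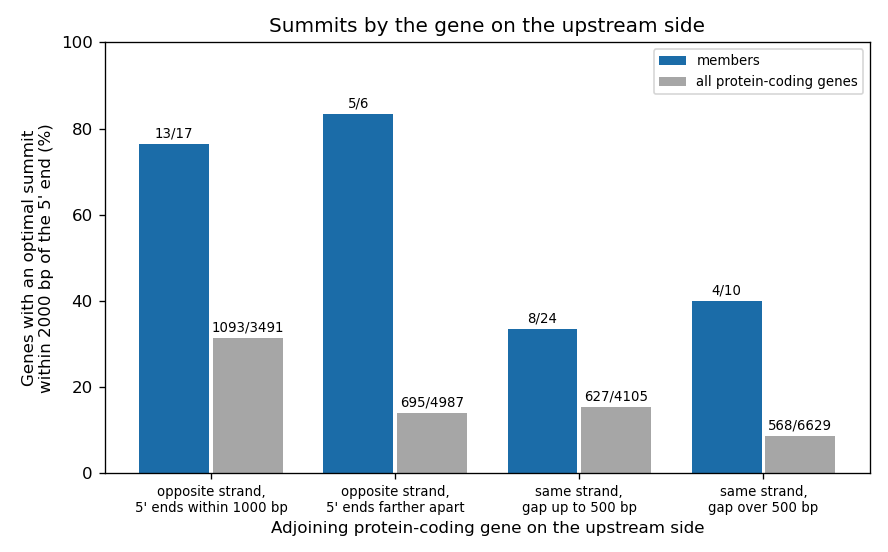
Share of genes (y axis, %) with an optimal summit within 2000 bp of the 5′ end, by the strand and distance of the adjoining protein-coding gene on the upstream side (x axis), for members (blue) and all protein-coding genes (grey). Numbers above the bars give genes with a summit over genes in the class. Among members, 13 of 17 with a close divergent neighbour had a summit, and 8 of 24 with a close same-strand neighbour.

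Further genes of the same machinery carry other names and were taken from lists written from general knowledge. Of 9 Mediator genes under other names, 5 had an optimal summit within 2000 bp (55.6%, 95% Wilson interval 26.7 to 81.1, against 15.4% of all protein-coding genes). They were sop-3 (190 bp upstream), the MED14 gene rgr-1 (242 bp), the kinase gene cdk-8 (12 bp), the MED23 gene sur-2 (151 bp) and the MED12 gene dpy-22 (519 bp), each the gene with the nearest 5′ end. None was found near let-19, cic-1, lin-25 or let-49. Unlike those of most mdt genes, 4 of these 5 summits lay within 500 bp, and this difference was not tested. The interval does not test the share against 15.4% either, since the list was chosen with earlier results of these data known.

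Of 19 genes for the largest polymerase subunit and the general transcription factors, 4 had a summit within 2000 bp (21.1%, 95% Wilson interval 8.51 to 43.3, against 15.4% of all protein-coding genes). The gene of the largest subunit, ama-1, had it 542 bp upstream, with a pooled signal of 33.0 (rank 1586). That of cdk-7, the kinase of TFIIH, was the highest, 53 bp upstream with a pooled signal of 97.6 (rank 92). The others were pqn-51 (21 bp upstream) and tlf-1, a TBP-like factor gene, whose summit 481 bp upstream is the same as that of cdk-8. None lay near tbp-1, which encodes the TATA-binding protein, ttb-1, the TFIIB gene, or any of the 9 gtf-2 genes of the list. Among 22 elongation, Paf1 complex and polymerase tail genes, 9 had a summit (40.9%, 23.3 to 61.3), the highest at the Paf1 gene pafo-1 (58 bp upstream, pooled signal 72.9, rank 248) and the P-TEFb kinase gene cdk-9 (161 bp upstream, 56.2, rank 514). The other 7 were ssup-72, ccnk-1, spt-5, rtfo-1, emb-5, cids-1 and cids-2. Of 10 genes of RNA polymerases I and III, 4 had a summit (40%, 16.8 to 68.7), namely rpoa-12, rpoa-49, rpac-19 and rpc-25. Of 7 genes of small nuclear RNA transcription, 2 did (28.6%, 8.22 to 64.1), namely snpc-3.4 and snpc-4. These 4 intervals are wide, and the lists were chosen with earlier results of these data known. None of the shares was therefore tested against the 15.4% of all protein-coding genes. For the rpoa-12, rpoa-49, rpac-19 and rpc-25 genes, the highest summit lay over 1000 bp from the 5′ end, and 2 of them had another within 500 bp.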

How the data were processed

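Peak lists of 2 biological replicates were used in the ce11 build, which is the WBcel235 assembly. Per the file headers and the notes deposited with the files, each list is in narrowPeak layout. The deposited signal of each peak is the value of the authors' peak caller. The optimal list was derived by the authors from the pooled list and from the list of each replicate. Neither aligner nor peak caller, nor the threshold, is given in the sources used here. Read depth is unknown, so no interval covers reads.

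A summit is column 2 plus column 10 of the file, counted from 1. The 5′ end of a gene is that of its gene line in Ensembl release 115. A summit counted for every protein-coding gene with a 5′ end within 2000 bp. Peaks of the replicates were matched to optimal peaks by an overlap of at least 1 bp, and the match with the highest signal was taken. The upstream gene was the protein-coding gene with the smallest gap on that side, and opposite 5′ ends overlapping by more than 100 bp were counted apart. Same-strand genes that overlap the 5′ end were counted as having no gap. All distances were computed with Python 3.11.15 and pandas 2.3.3, and tested on simulated summits. No test across genes was run. Members and lists were chosen with earlier results of these data known. All 32 members with an optimal summit are named, and of those without, the one with the highest candidate per complex has values, as have those nearest to a limit. The names of 5 of the 72 genes on the other lists were not matched. Alternatives were other distance limits, assignment to the nearest gene, the upper optimal peaks, all candidates, any transcript's 5′ end, other motif windows and overlaps, and each replicate alone.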

Additional observations from a re-analysis of the deposited data

How the results depend on the processing

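No paired analysis was possible because there is a single group. Of 60 recomputed counts, 43 came within 1.5 times the reported value and 17 did not, none of them from a test. The number of members with a summit, 32, was 19 with the nearest 5′ end only, 20 in the 1315 highest optimal peaks and 57 with all pooled candidates. For mdt genes, 10 became 3 within 500 bp, 3 with the nearest 5′ end only and 20 with all pooled candidates. For taf genes, 8 became 5 under the first 2 of these and in the 1315 highest peaks, and 15 with all candidates. The 8 rpb genes became 4 in the 1315 highest peaks, and the 6 ints genes became 11 with all candidates. In single replicates the counts lay between 26 and 28 for all members, 5 and 6 for rpb, 8 and 10 for mdt, 5 and 6 for ints, and 6 and 8 for taf. Without replicate 1, in the highest peaks of replicate 2, there were 5 rpb genes. Summits within 500 bp of a member, 22, became 13 in the 1315 highest peaks and 46 with all candidates. Peaks among the highest of both replicates, 22, became 9 with the 1000 highest of each. Summits with TGTTTAC or TGTTTGC, 6, became 12 of 138 with all candidates. Leaving out peaks at short non-coding RNA genes, an alternative chosen after seeing the data, could change no member count, since no member peak lay at one.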
